A study of Mus musculus with 12 samples.

Results

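The genes described here are 33 mouse genes of the lysosome and of autophagy, measured by RNA sequencing in C2C12 myotubes. They comprise 18 lysosome genes (6 cathepsins, 5 glycosidases, 3 genes for lipid and sterol handling and 4 membrane proteins), 14 autophagy genes and Tfeb, a transcription factor of both groups. The members were listed by symbol, and each symbol was matched to 1 Ensembl gene of the counts table through a GENCODE annotation of genome build GRCm38. All 33 were found among 55487 listed genes, and all 33 passed the filter on low counts that left 14175 genes for testing.

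C2C12 cells are mouse myoblasts, grown as a line, which stop dividing and fuse into myotubes in medium poor in serum. The cells were differentiated for 5 days in DMEM with 2% horse serum, and the medium was then exchanged for DMEM with 4% horse serum (the control, HS, libraries 1 to 6) or with 4% STEM (libraries 7 to 12), each for 24 h. STEM denotes the factors secreted by human embryonic stem cells that have been partially differentiated, given without the cells. STEM replaced the serum, so adding the secretome and removing 4% horse serum cannot be told apart. The model is 1 established cell line in culture, and all libraries share the line and the differentiation medium. The labels do not say whether the 6 libraries of a group came from separately grown cultures, so the p-values measure only the spread between these libraries, which may be technical.

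Lysosomes are acidic compartments in which proteases, glycosidases and lipid-handling proteins break down material, and their membrane holds the pump, channels and transporters that export the products. In autophagy a membrane grows around cytoplasm or organelles, is marked by lipid-linked proteins of the Atg8 family and finally fuses with a lysosome. Many genes of both systems carry a short DNA element that is bound by TFEB and its relatives, and in muscle these systems are known for the turnover of proteins, mitochondria and glycogen.

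The element, TCACGTG, was searched in RefSeq promoter windows of build GRCm38.p6 that run from 250 bases before to 50 bases after the annotated start, on both strands. Windows were matched for 28 of the 33 genes and not for Ctsb, Npc1, Map1lc3a, Becn1 and Atg12. The 7-letter element was found in 8 of the 28 genes (28.6%), against 4.29% of 27025 genes with a window. Its 6-letter core CACGTG, which the longer element contains, was found in 11 of 28 genes (39.3%), against 8.09%. The 8-letter palindrome TCACGTGA, which contains both, was found in Ctsa, Ctsd and Mcoln1 (10.7%), against 1.12%. A match is a description of the letters and not evidence of binding. The following stretches, all read 5′ to 3′ on the strand of the gene, show the element in capitals, so that the promoter of Ctsa, which was lower with STEM, can be set beside those of genes that did not pass the test.

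Lamp1, chr8:13159091-13159160, plus strand, 70 to 1 bases before the start, with 4 matches:
Lamp1: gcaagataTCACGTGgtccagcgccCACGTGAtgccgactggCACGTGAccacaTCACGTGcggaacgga
Glb1, chr9:114400981-114401050, plus strand, 97 to 28 bases before the start:
Glb1: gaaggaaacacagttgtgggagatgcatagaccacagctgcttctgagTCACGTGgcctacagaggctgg
Gaa, chr11:119267774-119267843, plus strand, 189 to 120 bases before the start:
Gaa: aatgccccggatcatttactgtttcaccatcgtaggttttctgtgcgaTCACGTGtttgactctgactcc
Atg7, chr6:114670915-114670984, plus strand, 181 to 112 bases before the start:
Atg7: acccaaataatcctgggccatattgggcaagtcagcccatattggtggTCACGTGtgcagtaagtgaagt
Ctsa, chr2:164833743-164833772, plus strand, 30 to 1 bases before the start:
Ctsa: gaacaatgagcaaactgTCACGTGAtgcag
Ctsd, chr7:142387908-142387937, minus strand, 110 to 81 bases before the start:
Ctsd: tcgcccgcgtcTCACGTGAcccgttgaggg
Mcoln1, chr8:3500462-3500491, plus strand, 57 to 28 bases before the start:
Mcoln1: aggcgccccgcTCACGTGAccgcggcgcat

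The capitals mark TCACGTG on either strand, written CACGTGA where it reads on the other strand, and the palindrome where 8 letters match. The last 3 stretches are cut to 30 bases because GENCODE places an exon of the same gene there. Starts are those of RefSeq, and these 3 stretches and that of Atg7 lie inside the gene as GENCODE places it. GENCODE begins Atg7 at chr6:114643097 and Ctsa at chr2:164832873. Ctsa, Ctsd and Mcoln1 each hold 2 CACGTG cores in the window, of which 1 is shown, and the match of Atg14 spans its start and is not shown. Of the 8 genes with the element, Ctsa and Atg14 were lower with STEM, and Ctsd, Lamp1, Gaa, Glb1, Mcoln1 and Atg7 did not pass the test. Ctsf and Ctsl, which had the lowest fold changes of the 33 genes, hold the 6-letter core but not the 7-letter element.

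Depth was between 13285472 and 24536264 counts per library. HS library 6 stood apart from its group: counts of HS 6 and of any other HS library gave a chi-square of 62.8 to 76.6 per degree of freedom, while other pairs within a group gave 3.54 to 20.9. On the first principal component HS 6, at 11.2, lay nearer to the STEM libraries (15.5 to 28.6) than to HS 1 to 5 (-35.5 to -24.6), and its mitochondrial share of counts, 2.43%, was below the 3.72 to 4.21% of HS 1 to 5 and the 2.54 to 3.29% with STEM. Myotube markers (9 genes, among them Ckm, Acta1 and Myh3) summed to 6690 CPM (counts relative to the scaled total of the library) in HS 6, to between 11330 and 12350 CPM in the other HS libraries and to between 9567 and 11900 CPM with STEM. Of these markers Mymk (log2 fold change 0.36) was higher and Myog (-0.28) and Myh8 (-1.25) were lower with STEM, and without HS 6 Acta1 (-0.25), Tnnc2 (-0.26) and Tnnt3 (-0.17) were lower as well. Markers of undifferentiated or cycling myoblasts (5 genes) summed to between 538.9 and 863.1 CPM in HS and to between 428.2 and 498.2 CPM with STEM, without overlap, and of these Myf5, Mki67 and Top2a were lower with STEM. Macrophage markers summed to at most 7.38 CPM, with Adgre1 and Fcgr1 at 0 in every library, and endothelial and adipocyte markers to at most 0.353 CPM. Whether HS 6, the myotube markers or the cycling markers have a part in the differences below was not tested beyond leaving out HS 6, which is given beside each call it changes. In these bulk samples fewer cells of a type and less RNA per cell cannot be told apart.

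Levels between genes were compared as CPM per kilobase of merged exons. In HS, the highest level was that of Ctsd, the main aspartic protease of lysosomes, at 344 CPM per kilobase. Next came Lamp1, an abundant glycoprotein of the lysosomal membrane, at 252 CPM per kilobase, and Psap, the precursor of the saposins that assist sphingolipid breakdown, at 199 CPM per kilobase. This order rests on the annotated length. Without it Ctsl, with 6489 bases of merged exons, stood above Ctsd, with 2351, at means of 851 and 809 CPM in HS. Ctsd shares 34.4% of its exon bases with Gm49369 on the same strand, which had at most 1 count in a library. Among autophagy genes Gabarap, Map1lc3a and Sqstm1 led at 144, 141 and 134 CPM per kilobase in HS. The means of these 3 differed by less than the spread of Map1lc3a between libraries. At the lower end stood Atg14 at 2.79, Atg7 at 2.88 and Npc1 at 3.28 CPM per kilobase. Even the least counted gene, Atg14, had at least 147 counts in every library, so none of the 33 was near the filter on low counts.

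**Figure D1:**
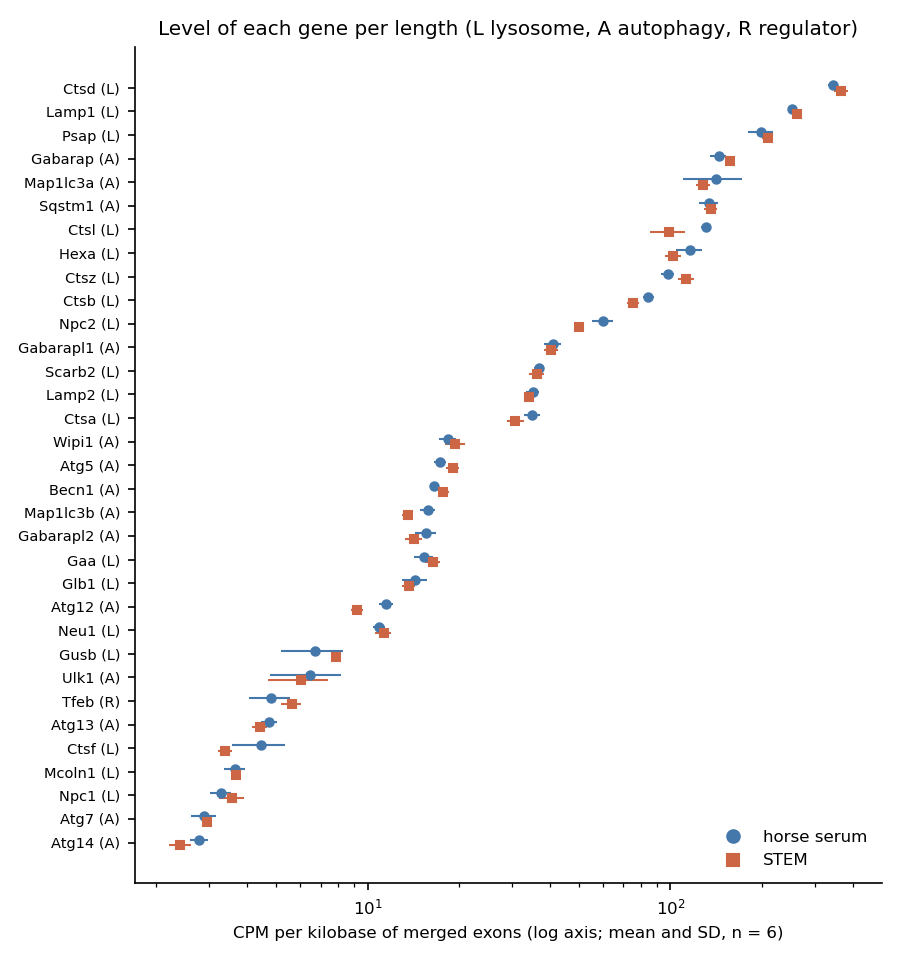
Level of each of the 33 genes as CPM per kilobase of merged exons on a log axis, with the mean and SD over 6 libraries for horse serum (circles) and STEM (squares). Genes are sorted by their level in horse serum, from Ctsd at 344 CPM per kilobase to Atg14 at 2.79 CPM per kilobase, and for most of them the means of the 2 groups lie close together.

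The comparison asked how 24 h of 4% STEM in place of 4% horse serum changed these genes. Among the 18 lysosome genes 6 were lower with STEM (33.3%) and 1 was higher (5.56%), by edgeR's quasi-likelihood test at an adjusted p of 0.05 or less. Over all 14175 tested genes 17.4% were lower and 18.9% were higher. The lower genes were the proteases Ctsl, Ctsf, Ctsa and Ctsb, the glycosidase subunit Hexa and the sterol carrier Npc2, and the higher gene was the protease Ctsz. The median log2 fold change of the 18 genes was -0.00665, beside 0.0121 over all tested genes, with 9 genes above 0 and 9 below. Every STEM library was below every HS library for 3 lysosome genes (Ctsb, Ctsl and Npc2), against 8.52% of all tested genes, and above for 0, against 8.68%.

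Among the 14 autophagy genes 3 were lower with STEM (21.4%) and 0 were higher, where at an unadjusted p under 0.05 edgeR gave 3 higher, DESeq2 gave 0 higher after adjustment and limma-voom 1. The lower genes were Atg12, Map1lc3b and Atg14. The median log2 fold change of the 14 genes was -0.0538, with 6 genes above 0 and 8 below. For 1 of the 14, Atg12, every STEM library was below every HS library, against the same 8.52%. Tfeb did not pass the test. The changes were small: the median absolute log2 fold change of the 10 called genes was 0.215, against 0.374 over the 5155 called genes of the whole table. In a test against a 1.2-fold change (glmTreat) none of the 33 genes passed, beside 690 higher and 867 lower of all 14175 tested genes. These medians are of unlike sets, because genes with few counts are called only at larger changes and the 33 genes were all well counted.

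Leaving out HS 6 changed the picture of higher genes. Without it 5 lysosome genes were higher and 6 lower, against 26.3% and 24.5% of 14267 tested genes. Gaa, Gusb, Npc1 and Psap joined Ctsz, and Ctsl, Ctsf, Ctsa, Ctsb, Hexa and Npc2 were lower again. For autophagy, 3 genes were higher (Gabarap, Becn1 and Atg5) and 5 lower, with Map1lc3a and Gabarapl2 joining the 3 called before. The groups then did not overlap for 8 lysosome genes, with Ctsz and Gusb above (against 16.8% of genes) and Ctsa, Ctsb, Ctsf, Ctsl, Hexa and Npc2 below (against 16.5%), and for 3 autophagy genes, Atg12, Map1lc3a and Map1lc3b, all below. HS 6 was the lowest or the highest HS library for 14 of 18 lysosome genes (77.8%) and 11 of 14 autophagy genes (78.6%), against 69% of all tested genes.

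**Figure D2:**
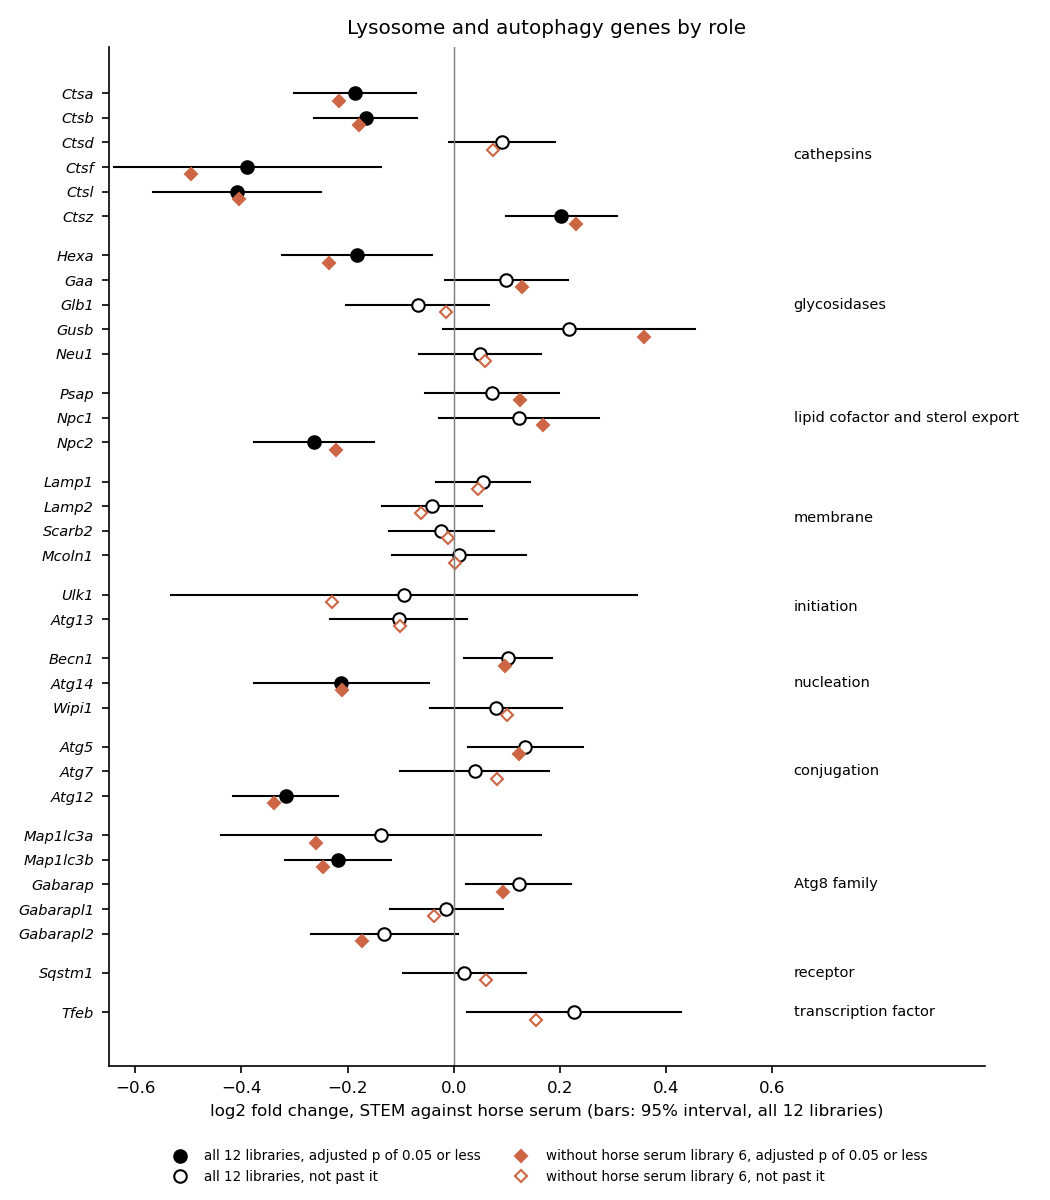
Log2 fold change of each gene, STEM against horse serum, by role, with the 95% interval from all 12 libraries (circles and bars) and the value without horse serum library 6 (diamonds); filled symbols have an adjusted p of 0.05 or less. Filled circles stand on the left for 9 genes and on the right for Ctsz, and more diamonds than circles are filled.

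The cathepsins, the proteases of the lysosome, held 5 of the 7 called lysosome genes. Ctsl, a cysteine endopeptidase (chr13:64359337-64370890, minus strand), was at 804 CPM in the lowest HS library, 856 at the median and 899.5 in the highest, and with STEM at 563, 616 and 777. The ranges did not overlap, and STEM libraries spread more widely than HS libraries. Its level fell by 24.6% with STEM (log2 fold change -0.41, SE 0.074, edgeR adjusted p = 0.000619). Ctsb, another cysteine protease (chr14:63122462-63145923, plus strand), was at 489.5, 508 and 548 CPM in HS and at 428, 458 and 484 with STEM. These ranges did not overlap either, and the level fell by 10.9% (log2 fold change -0.17, SE 0.046, adjusted p = 0.0106). The exons of Ctsb share 12.8% of their bases with Fdft1 on the opposite strand, a gene of sterol synthesis whose mean was 211 CPM in HS and 162 CPM with STEM. The library kit marks strand, but the strand setting used in counting is not given in the sources used here, so shared reads cannot be placed.

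Ctsf, a cysteine protease of low level, was at 14.2, 23.7 and 27.1 CPM in HS and at 15.5, 17.1 and 18.4 with STEM. The lowest HS value came from HS 6, and the other 5 HS libraries, at 21.8 CPM or more, all lay above the STEM range. Its log2 fold change was -0.39 (SE 0.118, adjusted p = 0.0182) with HS 6 and -0.49 without it, and the call was lost with limma-voom, which left 4 lower lysosome genes. Ctsa, a serine carboxypeptidase that also protects β-galactosidase and sialidase in a complex, was at 147, 167 and 175 CPM in HS and at 137.5, 141 and 159.5 with STEM. Here too HS 6 was the lowest HS library, and 4 of 6 STEM libraries lay below it. The log2 fold change of Ctsa was -0.19 (SE 0.054, adjusted p = 0.0138). Ctsa shares 10.5% of its exon bases with Pltp on the opposite strand, which averaged 36.5 CPM in HS and 50.2 CPM with STEM.

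Ctsz, a carboxypeptidase of the cysteine class, went the other way. It was at 134, 138 and 154 CPM in HS and at 151, 159.7 and 179 with STEM, and 5 of 6 STEM libraries lay above every HS library. The level was 15.1% higher (log2 fold change 0.20, SE 0.049, adjusted p = 0.00459). Ctsd did not pass the test, at 761, 814 and 838 CPM in HS and 794, 866 and 927 with STEM, with a log2 fold change of 0.09 (95% interval -0.01 to 0.19, adjusted p = 0.144). Although 4 STEM libraries were above all HS libraries of Ctsd, the ranges overlapped.

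**Figure D3:**
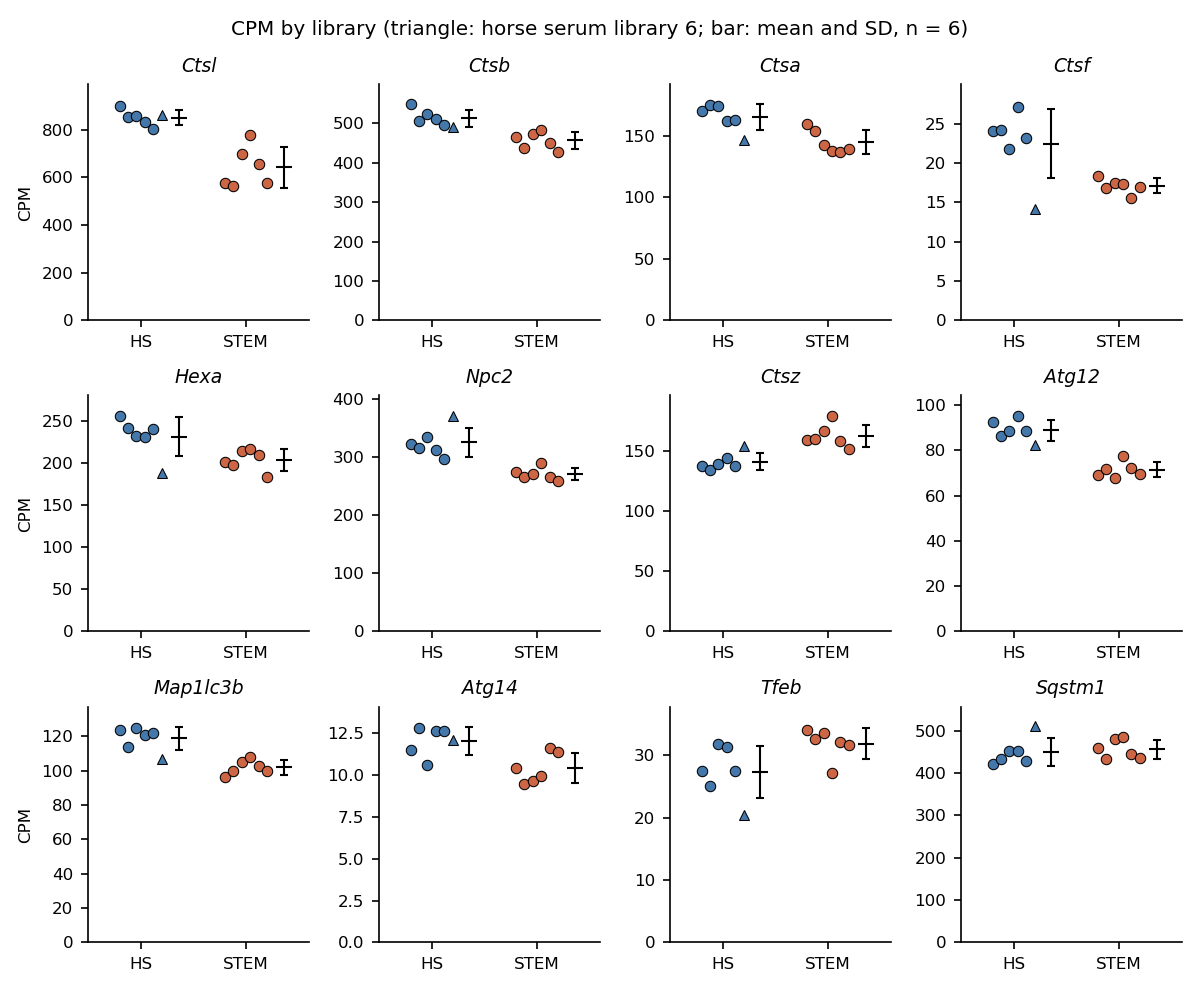
CPM in each library for 12 of the genes, with horse serum (HS) at left and STEM at right, the mean and SD (n = 6) beside the points and HS library 6 drawn as a triangle; every axis starts at 0. For Ctsl, Ctsb, Npc2 and Atg12 the 6 STEM points lie below the 6 HS points, and for Ctsf, Hexa and Ctsa only the triangle of HS 6 reaches the STEM range.

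The glycosidases, which remove sugars from glycogen, glycolipids and glycoproteins, were called for 1 of 5 genes. Hexa, the α subunit of β-hexosaminidase A, was at 188, 237 and 256 CPM in HS and at 183, 205 and 217 with STEM. HS 6 was again the lowest HS library, and the other 5 lay above every STEM library. The log2 fold change of Hexa was -0.18 (SE 0.066, adjusted p = 0.0426). This call was lost when any of HS 1 to 5 or STEM 7, 8, 11 or 12 was left out, with log2 fold changes between -0.19 and -0.15, and with limma-voom. Hexa was nevertheless called without HS 6, at -0.24 (adjusted p = 0.000204).

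Gusb, β-glucuronidase, was at 25.2, 28.3 and 44.5 CPM in HS and at 35.1, 35.5 and 36.7 with STEM. HS 6 held the highest value, while the other HS libraries reached 30.4 CPM at most and lay below all STEM libraries. With all libraries the log2 fold change was 0.22 (95% interval -0.02 to 0.46, adjusted p = 0.144), and without HS 6 it was 0.36 (adjusted p = 1.5e-05). Gaa, the acid α-glucosidase that breaks down glycogen, was at 65.7, 74.3 and 81.0 CPM in HS and 73.9, 77.4 and 86.3 with STEM, with overlap. Its log2 fold change was 0.10 (95% interval -0.02 to 0.22) and 0.13 without HS 6, where it passed the test (adjusted p = 0.0331). Glb1, the lysosomal β-galactosidase, and Neu1, a sialidase, gave -0.07 (95% interval -0.20 to 0.07) and 0.05 (-0.07 to 0.16), and neither passed the test with or without HS 6, where Glb1 moved to -0.01.

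Of the genes for lipids and sterols, Npc2, the soluble carrier that hands cholesterol to NPC1, was at 297, 319 and 371 CPM in HS and at 259, 269.6 and 290.0 with STEM. The ranges did not overlap, and HS 6 was the highest HS library. The level of Npc2 fell by 16.7% (log2 fold change -0.26, SE 0.053, adjusted p = 0.00128). Npc1, its membrane partner, was at 34.1, 36.6 and 42.8 CPM in HS and 36.2, 39.8 and 46.5 with STEM, with overlap and a log2 fold change of 0.12 (95% interval -0.03 to 0.27). For Psap the values were 498, 530.1 and 643 CPM in HS and 551, 571 and 609.9 with STEM, and the log2 fold change was 0.07 (95% interval -0.05 to 0.20). Both passed the test without HS 6, at 0.17 (adjusted p = 0.03) for Npc1 and 0.12 (adjusted p = 0.0182) for Psap, so the partners Npc1 and Npc2 then stood on opposite sides.

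Of the 4 membrane genes 0 were called by edgeR, with or without HS 6, and 0 by DESeq2 or limma-voom, which were run on all 12 libraries only. With all libraries 0 had an unadjusted p under 0.05. Lamp1 was at 649, 671 and 700.0 CPM in HS and 663, 699.5 and 737 with STEM, and Lamp2, its paralog that also serves chaperone-mediated autophagy, at 310.0, 336 and 362 CPM in HS and 314, 326 and 344 with STEM. The ranges overlapped for both. Their log2 fold changes were 0.06 (95% interval -0.03 to 0.14) and -0.04 (-0.14 to 0.05). Scarb2, the receptor that carries glucocerebrosidase to lysosomes, gave -0.02 (-0.12 to 0.07), and Mcoln1, a calcium channel, gave 0.01 (-0.12 to 0.14). The intervals of these 4 genes leave room for log2 changes of at most 0.14 in either direction.

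Summed over the 18 lysosome genes, the level was 4930 CPM in the lowest HS library, 5111 at the median and 5222 in the highest, and 4567, 4831 and 5235 with STEM. The sum weights abundant genes, and the ranges overlapped: 4 STEM libraries lay below the HS range, and STEM 10, the highest STEM library, lay above it. For the 14 autophagy genes the sums were 1457, 1546 and 1599 CPM in HS and 1502, 1518 and 1583 with STEM, and all STEM values lay within the HS range. The lowest HS sum was that of HS 6. HS 1 to 5 ran from 1525 to 1599 CPM, and STEM 7, 8, 11 and 12 lay below these.

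**Figure D4:**
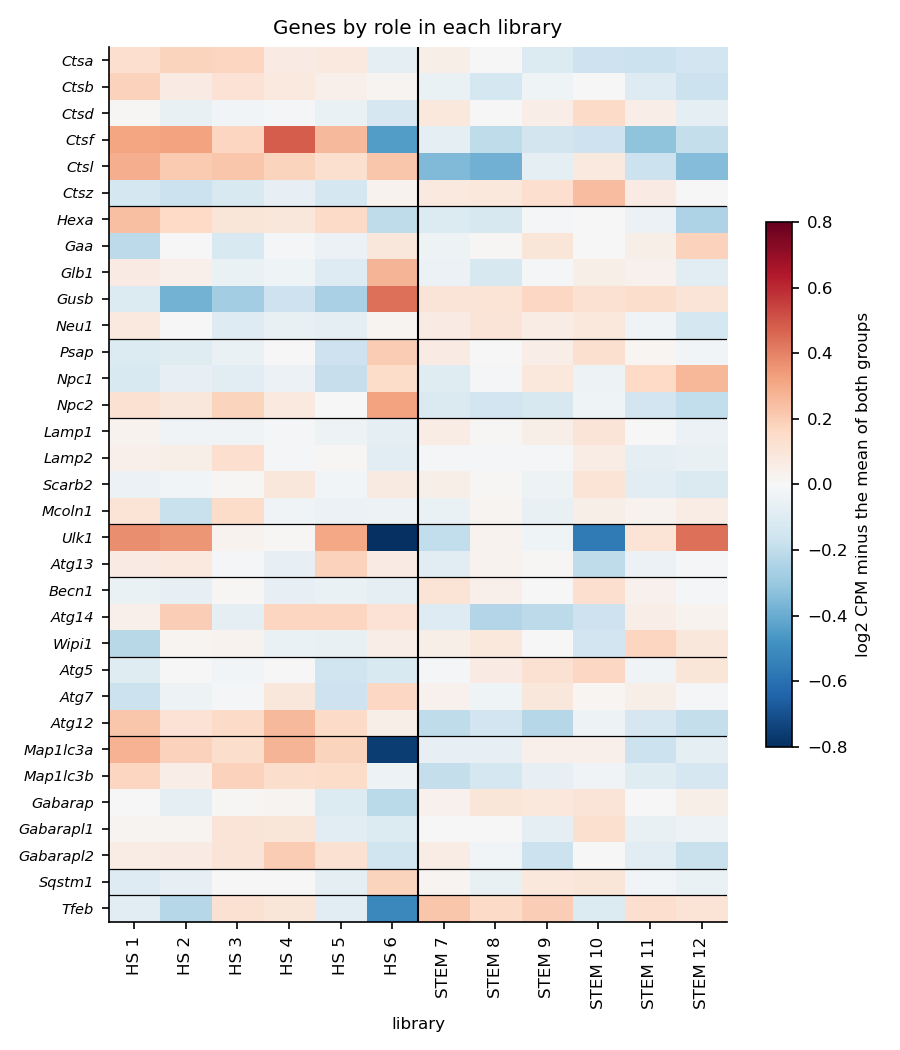
Log2 CPM of each gene in each library minus the average of the 2 group means, with genes in rows by role and libraries in columns; red is higher and blue is lower, and the deviations run from -0.84 to 0.48. Among the HS columns HS 6 stands out for Ulk1, Map1lc3a, Ctsf, Gusb and Tfeb, and Atg12 is blue in all STEM columns.

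Autophagy starts with the ULK1 kinase complex. Ulk1, which encodes the kinase, had the largest SE of the 33 genes (0.202) and was at 22.0, 44.4 and 50.9 CPM in HS and at 26.6, 39.3 and 53.4 with STEM. HS 6 was the lowest HS library and STEM 10 the lowest STEM library, and the ranges overlapped almost entirely. The log2 fold change of -0.09 had a 95% interval from -0.53 to 0.34, which covers sizeable changes in either direction. Atg13, a partner of ULK1, gave -0.10 (95% interval -0.23 to 0.03). Without HS 6 the value of Ulk1 moved to -0.23 (adjusted p = 0.253), and over all libraries left out in turn it lay between -0.23 and -0.00494. Atg13 stayed at -0.10 without HS 6, and neither gene passed the test in either fit.

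In the lipid kinase complex that begins the autophagosome membrane, Atg14, its targeting subunit, was at 10.6, 12.4 and 12.8 CPM in HS and at 9.48, 10.2 and 11.6 with STEM. The ranges overlapped, with 4 STEM libraries below every HS library. Its log2 fold change was -0.21 (SE 0.078, adjusted p = 0.044). The call for Atg14 was lost without HS 1, 2, 4 or 5 or without STEM 7, 8, 9 or 10, where the log2 fold change was between -0.22 and -0.19, and was lost with DESeq2 and with no filter on low counts. Becn1, the scaffold of the complex, was at 115, 117 and 122 CPM in HS and 120.5, 125 and 133 with STEM, with 4 STEM libraries above all HS libraries. Becn1 just missed the threshold, at 0.10 (95% interval 0.02 to 0.19, adjusted p = 0.0508). It passed without HS 6 (0.10), without STEM 9 (0.11) and without STEM 12 (0.11). Wipi1, which binds the lipid this complex makes, gave 0.08 (95% interval -0.04 to 0.20).

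The conjugation machinery attaches Atg8 proteins to lipid. Atg12, the ubiquitin-like protein that is joined to ATG5, was at 82.2, 88.6 and 95.1 CPM in HS and at 67.9, 70.6 and 77.3 with STEM. The groups did not overlap, and the STEM libraries lay close together. The level of Atg12 fell by 19.7% (log2 fold change -0.32, SE 0.046, adjusted p = 0.000103), the lowest adjusted p of the 33 genes. Atg5, its partner, was at 38.3, 41.1 and 42.9 CPM in HS and 42.0, 45.3 and 48.0 with STEM, and 4 STEM libraries lay above all HS libraries. Atg5 missed the threshold at 0.13 (95% interval 0.03 to 0.24, adjusted p = 0.0505) and passed it without HS 6 (0.12) and without STEM 11 (0.15). Atg7, the enzyme that activates ATG12 and Atg8 proteins, gave 0.04 (95% interval -0.10 to 0.18) and 0.08 without HS 6 (adjusted p = 0.285).

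The Atg8 family, whose proteins coat the growing membrane and bind cargo receptors, held 1 called gene of 5. Map1lc3b, which encodes LC3B, was at 107, 121 and 125 CPM in HS and at 96.2, 102 and 108 with STEM. HS 6 was the lowest HS library and only it reached the STEM range. The log2 fold change of Map1lc3b was -0.22 (SE 0.047, adjusted p = 0.00213). Map1lc3a was at 92.6, 178 and 190 CPM in HS and at 139, 150 and 161 with STEM. The value of 92.6 was that of HS 6, and the other 5 HS libraries, at 173 CPM or more, lay above all STEM libraries. With all libraries the log2 fold change of Map1lc3a was -0.14 (95% interval -0.44 to 0.17, adjusted p = 0.475), and without HS 6 it was -0.26 (adjusted p = 4.7e-05).

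Gabarap, of the other branch of the family, was at 239, 269.8 and 281.5 CPM in HS and at 277, 290.1 and 298 with STEM, and 5 STEM libraries lay above all HS libraries. It missed the threshold at 0.12 (95% interval 0.02 to 0.22, adjusted p = 0.0525), and was called with limma-voom (0.12), without HS 4 (0.14) and without HS 6 (0.09). Gabarapl2 gave -0.13 (95% interval -0.27 to 0.01) and, without HS 6, -0.17 (adjusted p = 0.0128). Gabarapl1 gave -0.01 (95% interval -0.12 to 0.09). Its exons share 28.3% of their bases with 1700101I11Rik on the opposite strand, which had at most 8 counts in a library.

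Sqstm1, which encodes the cargo receptor p62, was at 421, 442 and 511 CPM in HS and at 433, 452 and 484 with STEM. All STEM libraries lay within the HS range, and the highest HS library was HS 6. The log2 fold change of Sqstm1 was 0.02 (95% interval -0.09 to 0.14, adjusted p = 0.796) and 0.06 without HS 6, and it was called under none of the 20 alternatives.

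Tfeb, which encodes the transcription factor itself (chr17:47737030-47792419, plus strand), was at 20.5, 27.5 and 31.8 CPM in HS and at 27.1, 32.4 and 34.1 with STEM. HS 6 was the lowest HS library and STEM 10 the lowest STEM library, and 4 of 6 STEM libraries lay above every HS library. Its log2 fold change was 0.23 (95% interval 0.02 to 0.43, SE 0.095, adjusted p = 0.0749), so it did not pass the test. The call changed with single libraries: Tfeb was called without HS 3 (0.27), HS 4 (0.27) or STEM 10 (0.27), and not without HS 6 (0.15, adjusted p = 0.072). These values are of the messenger RNA, and the location and phosphorylation of the protein, by which TFEB is mainly controlled, were not measured.

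The relatives of Tfeb differed in direction. Mitf was at 20.1, 21.9 and 24.0 CPM in HS and at 16.1, 17.9 and 19.3 with STEM, without overlap, and was lower (log2 fold change -0.31, adjusted p = 0.00131). Tfe3 was at 16.6, 17.6 and 22.1 CPM in HS and at 19.9, 21.2 and 23.1 with STEM, with overlap, and was higher (0.21, adjusted p = 0.0399). Tfec had 0 counts in every library. Of 22 tested genes for these factors and for the mTORC1 kinase pathway that restrains them at the lysosome, 8 were higher and 3 lower, beside 18.9% higher and 17.4% lower over all tested genes. Rraga, a GTPase that recruits mTORC1 (0.31), and Lamtor1, the anchor of that complex on the membrane (0.21), were higher without overlap. Not all genes of this list went up: without HS 6, 10 were higher and 4 lower. Among the lower was Lamtor5 (-0.34, edgeR adjusted p = 1.9e-06).

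Lists of further genes of both systems are given as counts, to be read against the 18.9% of all tested genes that were higher and the 17.4% that were lower. Of 33 tested lysosomal hydrolases outside the members, 10 were lower and 7 higher. The lowest p-values were those of Dnase2a, a nuclease of lysosomes, at -0.68 (59.2, 64.6 and 69.5 CPM in HS against 38.4, 40.05 and 41.9 with STEM, adjusted p = 1.69e-07), Acp2, an acid phosphatase, at 0.44, and Arsa, arylsulfatase A, at -0.57. The groups did not overlap for any of these 3 genes.

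Of 20 other membrane proteins 4 were lower and 2 higher, with Pip4p1 (-0.38), Cd164 (-0.20) and Hgsnat (-0.17) having the lowest p-values. Of 20 tested subunits of the V-ATPase, the proton pump that acidifies lysosomes, 5 were higher and 1 lower. Atp6v0a2 (0.30) and Atp6v0e (0.25) of the membrane sector were higher, and Atp6v1a, the catalytic subunit, was lower at -0.29, from 243, 251 and 257.5 CPM in HS to 198, 203 and 216 with STEM. Among 9 genes that sort hydrolases to lysosomes 3 were higher and 1 lower. Igf2r, the large receptor for mannose 6-phosphate, was lower (-0.36), and Gnptg (0.46), part of the enzyme that starts this tag, and Gga2 (0.27), an adaptor of the transport vesicles, were higher.

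For autophagy, 5 of 24 other core genes were higher and 4 lower. Rb1cc1, which encodes the FIP200 scaffold of the ULK1 complex, was lower at -0.45, from 166, 212 and 226.5 CPM in HS to 141, 152.5 and 157 with STEM, and Vmp1 (-0.23) and Wdr45 (-0.39) were lower as well. Of 13 receptors 2 were higher and 4 lower. Calcoco1 (-0.37) was lower, while Ncoa4, the receptor for ferritin (0.24), and Tex264, a receptor for endoplasmic reticulum (0.28), were higher. Bnip3 and Bnip3l did not pass the edgeR test with all libraries, at -0.78 (adjusted p = 0.15) and -0.39 (adjusted p = 0.153). For Bnip3, HS 6 was at 131 CPM, HS 1 to 5 at 862 or more and STEM at 364 to 634. For Bnip3l, HS 6 was at 99.1 CPM, HS 1 to 5 at 233 or more and STEM at 156 to 200. Without HS 6 both were lower by edgeR, Bnip3 at an adjusted p of 0.000246 and Bnip3l at -0.54 (adjusted p = 2.1e-06). Of 14 genes for fusion of autophagosomes with lysosomes 4 were higher by edgeR and by limma-voom (against 18.9% of all genes by edgeR) and 3 by DESeq2. With each of these tools 0 were lower, against 17.4% of all genes by edgeR at the adjusted threshold. At an unadjusted p under 0.05 also 0 were lower, a threshold for which the share of all genes is not given here. The SNARE gene Ykt6 led at 0.45, from 94.2, 96.2 and 114 CPM in HS to 124, 134 and 148 with STEM, followed by Vps33a (0.32) and Tecpr1 (0.31).

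Median log2 fold changes of these lists lay between -0.161 for the receptors and 0.19 for the sorting genes, beside -0.00665 for the 18 lysosome genes and -0.0538 for the 14 autophagy genes. Without HS 6 the counts of higher and lower genes were 10 and 11 for hydrolases, 6 and 3 for membrane proteins, 7 and 4 for the V-ATPase, 4 and 2 for sorting, 6 and 8 for core genes, 2 and 7 for receptors, 6 and 1 for fusion and 10 and 4 for the TFEB relatives and mTORC1. These counts stand beside 26.3% higher and 24.5% lower over all genes tested without HS 6.

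**Figure D5:**
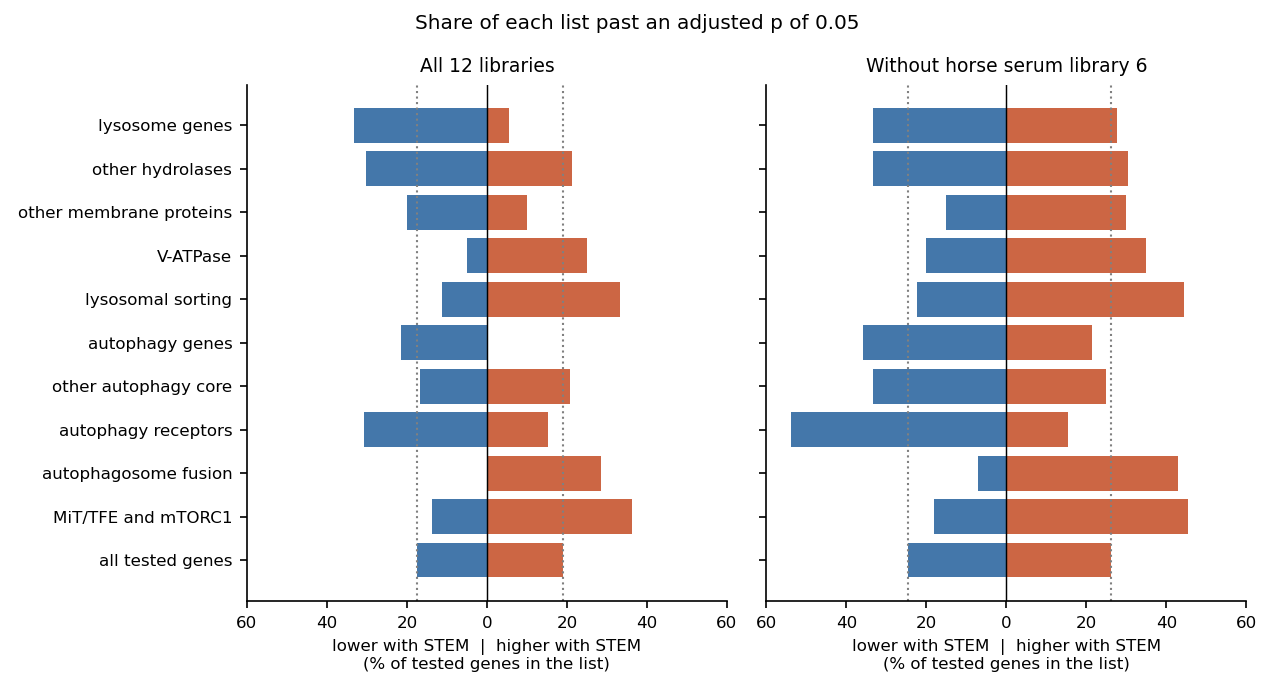
Share of the tested genes of each list with an adjusted p of 0.05 or less, lower with STEM to the left and higher to the right, with all 12 libraries (left panel) and without horse serum library 6 (right panel); dotted lines mark the shares over all tested genes. The lysosome genes reach 33.3% on the lower side and 5.56% on the higher side with all libraries, and the autophagy genes 21.4% and 0.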

How the data were processed

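Total RNA of the 12 samples was made into stranded, ribosomal RNA depleted libraries by the authors, who deposited raw read counts per gene on build GRCm38. The submitters' processing notes name STAR 2.7.3a, featureCounts 1.6.3 and DESeq2 1.26.0. The strand setting, the annotation release and the treatment of reads with several matches are not given in the sources used here. Symbols, coordinates and exon lengths came from GENCODE (55227 of 55487 genes, with 0.00268% of counts outside it).

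Groups followed the sample labels. Counts were fitted over the whole table with edgeR 4.0.16 (TMM, filterByExpr, robust glmQLFit, glmQLFTest) in R 4.3.3, without covariates, and p-values were Benjamini-Hochberg adjusted over all 14175 genes. CPM used TMM library sizes. Log2 CPM had a prior count of 2 for the principal components and none for the deviations drawn by gene and library. Intervals are 95% intervals of the fit. Alternatives were other scalings, other filters (none, or 10 counts in every library), DESeq2 1.42.0, limma-voom (limma 3.58.1), an adjusted p of 0.01, glmTreat at 1.2-fold and leaving out each library.

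The members and gene lists were chosen with earlier results of these data known. Named are all 33 members and at most 3 called genes with the lowest p per other list. Named as well are Mitf, Tfe3, Tfec, Lamtor5, Bnip3, Bnip3l, marker genes and genes that share exons with a member. Depth of 13285472 to 24536264 counts gave a median SE of 0.0542 (log2) over lysosome genes and 0.0562 over autophagy genes.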

Additional observations from a re-analysis of the deposited data

Results flagged for a closer look

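In 6 of 66 checks, each of 1 gene in 1 group of 6 libraries, the highest or lowest library stood farther from the rest than Dixon's criterion allows. Chance gives about 1 in 20 such groups. HS 6 was the library in 4 of them. It was lowest for Hexa at 188 CPM (next 231) and for Map1lc3a at 92.6 CPM (next 173), and highest for Gusb at 44.5 CPM (next 30.4) and for Sqstm1 at 511 CPM (next 453). STEM 10 was highest for Gabarapl1 at 89.2 CPM (next 81.8) and lowest for Tfeb at 27.1 CPM (next 31.6). HS 6 also had the lowest sum of myotube markers, 6690 CPM, and STEM 10 the highest sum of lysosome genes, 5235 CPM. No cause was tested.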

How the results depend on the processing

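No direction reversed for any called gene. An adjusted p of 0.01 left 2 lysosome genes lower, 2 called membrane genes, 2 fusion genes and 7 genes of the TFEB and mTORC1 list, which also had 7 with no filter on low counts. At an adjusted p of 0.01, 1676 of all 14175 tested genes were higher and 1590 lower. limma-voom called 1 autophagy gene higher. Against a 1.2-fold change 0 lysosome and 0 autophagy genes were called in either direction, beside 4 hydrolases, 1 sorting gene, 1 core gene, 1 fusion gene and 0 genes of the membrane, V-ATPase, receptor and TFEB and mTORC1 lists. Over all 14175 tested genes 690 were higher and 867 lower in that test.

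Leaving out 1 library at a time gave 1 to 5 higher lysosome genes, 0 to 3 higher and 2 to 5 lower autophagy genes, 5 to 11 called V-ATPase genes, 7 to 14 core genes and 3 to 7 fusion genes, with each maximum without HS 6. The lysosome median lay between -0.0264 and 0.0076, above 0 without HS 3 or STEM 9, and Tfeb between 0.15 and 0.27. Over the 18 lysosome and 14 autophagy genes, 590 of 640 values kept their side of the threshold, 36 lost a call and 14 gained one. Among genes not called, the sign changed in some settings for Mcoln1 (-0.02 to 0.04) and Gabarapl1 (-0.04 to 0.01). No paired analysis was made, because the labels do not say which HS and STEM libraries, if any, belong together. The least counted gene was Atg14, with 147 counts in its lowest library, and its call was lost under 12 of 20 alternatives.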
